A study of Mus musculus with 6 samples.

Results

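Neutrophils that enter an inflamed colon carry receptors for bacterial and damage signals on their surface and antimicrobial proteins in their granules. Here 10 such genes were described, chosen by gene symbol from the 18477 genes of the deposited count table. The receptors are *Fpr1* and *Fpr2*, which bind formylated peptides, *Trem1*, which amplifies signals from other innate receptors, and the C-type lectins *Clec4d* and *Clec4e*, which bind glycolipids of microbes. *Mpo* and *Elane* encode the primary granule proteins myeloperoxidase and neutrophil elastase, *Camp* and *Ngp* encode the secondary granule proteins cathelicidin and neutrophilic granule protein, and *Retnlg* encodes a secreted resistin-like protein of mature neutrophils.

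Granule genes and receptor genes mark different stages of a neutrophil. Primary granule proteins are made by promyelocytes in the bone marrow and secondary granule proteins by the stages that follow, so a mature neutrophil holds the proteins with little of their mRNA. The receptors are transcribed in mature cells and are further induced at sites of inflammation. Monocytes and macrophages also express the formyl peptide receptors, *Trem1* and both lectins, so these are not specific to neutrophils.

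Colon RNA came from male C57BL/6 mice bought at 6 to 8 weeks of age. Every mouse drank 2% DSS (dextran sulfate sodium), which damages the lining of the colon, in the last 7 of 14 days. The DSS group (n = 3) was gavaged daily with PBS and the DSS+BV group (n = 3) with the gut bacterium *Bacteroides vulgatus*, so both groups had colitis induced and no mouse without DSS is compared here. Mice were allocated to groups at random, and the comparison asks how colon gene expression differs when *B. vulgatus* is given. Each library is taken here as 1 mouse, which the sources used here do not state, so p-values measure the spread between these samples, which may be technical. Totals were between 15293276 and 17254343 expected counts per library. By expression over all tested genes, DSS 2 correlated best with DSS+BV 2 (r = 0.963), and DSS 1 and DSS+BV 1 correlated best with each other (r = 0.967; both across genes, which are not independent replicates). Clustered on these correlations, DSS+BV 1 fell with DSS 1 and DSS 3, and DSS 2 with DSS+BV 2 and DSS+BV 3, so values without DSS 2 and DSS+BV 1 are also given below.

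All 10 genes were found in the table, and their counts were whole numbers in all 6 libraries. Coordinates are those of RefSeq on GRCm38.p6, the build that the submitters' processing notes name. *Fpr1* (chr17:17876471-17883939, minus strand) and *Fpr2* (chr17:17887824-17893952, plus strand) are neighbours, 3884 bases apart with no other RefSeq gene between them. *Clec4d* (chr6:123262107-123275268, plus strand) and *Clec4e* (chr6:123281789-123289871, minus strand) are likewise neighbours, 6520 bases apart. *Trem1* lies at chr17:48232713-48246927, *Retnlg* at chr16:48872608-48874498, *Mpo* at chr11:87793784-87804412 and *Elane* at chr10:79886312-79888216. *Camp* (chr9:109847377-109849456) and *Ngp* (chr9:110419808-110423012) share a chromosome but are separated by 570351 bases.

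The 250 bases before the RefSeq start site are shown for *Retnlg*, 1 gene of each receptor pair and *Ngp*, the 4 promoters among the tested members that set the secreted, formyl peptide, lectin and granule classes side by side. Capitals mark a PU.1 core (GAGGAA) or a C/EBP core (TTGCNNAA), searched on both strands as factors known for myeloid genes. Sequences are from RefSeq on GRCm38.p6, written 5′ to 3′ on the strand of the gene.
Retnlg, chr16:48872358-48872607, plus strand: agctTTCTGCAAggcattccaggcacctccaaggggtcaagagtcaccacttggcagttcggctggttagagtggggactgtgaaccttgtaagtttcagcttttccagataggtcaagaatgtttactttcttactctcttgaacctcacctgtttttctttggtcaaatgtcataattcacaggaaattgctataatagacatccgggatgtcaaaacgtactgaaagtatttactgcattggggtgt
Fpr2, chr17:17887574-17887823, plus strand: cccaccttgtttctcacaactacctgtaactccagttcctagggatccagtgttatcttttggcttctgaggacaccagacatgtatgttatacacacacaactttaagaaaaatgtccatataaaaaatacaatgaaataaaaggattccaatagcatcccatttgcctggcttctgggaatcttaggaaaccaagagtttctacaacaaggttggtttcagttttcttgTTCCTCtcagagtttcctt
Clec4e, chr6:123289872-123290121, minus strand: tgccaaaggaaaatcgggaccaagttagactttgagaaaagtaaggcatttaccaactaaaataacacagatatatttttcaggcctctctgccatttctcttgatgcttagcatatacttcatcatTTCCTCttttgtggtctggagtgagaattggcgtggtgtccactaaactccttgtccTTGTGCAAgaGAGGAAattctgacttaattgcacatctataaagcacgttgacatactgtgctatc
Ngp, chr9:110419558-110419807, plus strand: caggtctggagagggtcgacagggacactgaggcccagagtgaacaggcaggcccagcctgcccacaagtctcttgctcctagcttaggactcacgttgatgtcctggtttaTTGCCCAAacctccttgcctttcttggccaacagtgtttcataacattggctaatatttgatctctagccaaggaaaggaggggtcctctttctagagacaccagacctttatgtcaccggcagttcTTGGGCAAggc
A PU.1 core was present in 6 of the 10 member promoters (*Fpr2*, *Trem1*, *Clec4d*, *Clec4e*, *Mpo* and *Elane*), and 23.3% of all 32851 RefSeq promoters of this length hold one. The C/EBP core was present in 3 (*Retnlg*, *Clec4e* and *Ngp*), against 9.56% of all promoters. *Clec4e* held both, with no overlap between the matches. *Fpr1* and *Camp* held neither core. Every promoter shown here holds a match, so those shown do not stand for all members. The NF-kB consensus was present in 0 of the 10 and in 0.356% of all promoters. These are matches of letters in a window, and binding was not measured.

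*Retnlg* had the smallest edgeR p of the members. Normalised expression is given as CPM, the count divided by the library size, with TMM factors correcting between libraries. Values of 3 mice are in the order of their numbers. *Retnlg* (Entrez gene 245195) was at 13.4, 20.1 and 14.7 CPM in mice 1, 2 and 3 of the DSS group and at 2.18, 1.66 and 1.26 CPM in those of the DSS+BV group. The lowest DSS mouse was 6.16 times the highest DSS+BV mouse. The means were 16.1 ± 3.58 and 1.70 ± 0.458 CPM (SD, n = 3 each), so *Retnlg* fell by 3.24 on the log2 scale with *B. vulgatus* (standard error 0.307). The edgeR quasi-likelihood test gave an adjusted p = 0.0293, by the Benjamini-Hochberg method over 14579 genes. To be called, a gene needed an adjusted p under 0.05 and a change of over 1 on the log2 scale in either direction.

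*Retnlg* was the 1 member of 10 called lower by edgeR, where 0.0892% of all tested genes were called lower. DESeq2 called it as well (adjusted p = 6.06e-18), as 1 of 7 members. That tool called 1.73% of the genes it tested lower. The edgeR call of *Retnlg* was lost whichever library was left out: the adjusted p rose to between 0.0621 and 0.276 from the same edgeR test. Its log2 fold change stayed between -3.44 and -3.03. Other resistin family genes overlapped between the groups. *Retnlb*, a goblet cell product, was at 61.0, 321 and 74.9 CPM in the DSS mice and at 45.2, 99.8 and 67.3 CPM in the DSS+BV mice, and *Retnla*, known from alternatively activated macrophages, was between 0.497 and 2.62 CPM and between 0.632 and 3.23 CPM.

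For each of the 5 surface receptors, all DSS+BV mice lay below all DSS mice, and 0 of the 5 were called by edgeR over all genes. A complete separation in this direction held for 11.3% of all tested genes. All 5 had an unadjusted edgeR p under 0.05, as had 9.12% of tested genes in the lower direction. With DESeq2, 5 of 5 were called, against 1.73% of the genes it tested, so their call depends on the tool. Their log2 fold changes were between -2.98 and -1.79 with a median of -2.30, and the median over all tested genes was -0.01, with 51.5% of them below 0.

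*Fpr1* (Entrez gene 14293), the high-affinity receptor for formylated peptides, was at 4.19, 2.98 and 9.03 CPM in mice 1, 2 and 3 of the DSS group. In those of the DSS+BV group it was at 1.52, 1.72 and 0.948 CPM. DSS 3 was the highest mouse and the groups did not overlap, the lowest DSS mouse being 1.73 times the highest DSS+BV mouse. The difference was -1.95 ± 0.502 on the log2 scale (SE; adjusted p = 0.283 with edgeR and 0.0236 with DESeq2).

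*Fpr2* (Entrez gene 14289), which also binds serum amyloid A and annexin A1, was at 6.95, 2.55 and 9.49 CPM in the DSS mice and at 0.989, 1.08 and 0.316 CPM in the DSS+BV mice. The DSS mice differed among themselves by 3.72 times and DSS+BV 3 rested on 5 counts. DSS+BV differed from DSS by -2.98 ± 0.648 on the log2 scale (SE; adjusted p = 0.222 with edgeR and 0.000896 with DESeq2). Within a library, *Fpr1* had 0.603, 1.17 and 0.951 counts for each count of *Fpr2* in mice 1, 2 and 3 of the DSS group and 1.53, 1.59 and 3 in those of the DSS+BV group. *Fpr1* thus had more counts than *Fpr2* in DSS 2 and in all DSS+BV mice, and the groups did not overlap in this ratio. The DSS+BV ratios rested on 23 to 15, 27 to 17 and 15 to 5 counts, so counting error is wide. *Fpr2* differed more between the groups than *Fpr1* (-2.98 against -1.95 on the log2 scale), which sets the direction of this ratio. For 1 value over 3 against 3 mice the smallest two-sided p of an exact permutation test is 0.1.

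*Trem1* (Entrez gene 58217) varied least among the DSS mice of the 5 receptors, at 3.23, 3.92 and 4.60 CPM, and was at 0.923, 0.446 and 0.253 CPM in the DSS+BV mice. The last of these rested on 4 counts. The lowest DSS mouse was 3.50 times the highest DSS+BV mouse, the widest gap among the receptors. On the log2 scale *Trem1* differed by -2.84 ± 0.496 (SE; adjusted p = 0.164 with edgeR and 5.12e-05 with DESeq2).

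*Clec4d* (Entrez gene 17474), also called MCL, was the most abundant receptor per length of exon and was at 10.5, 8.89 and 18.8 CPM in the DSS mice and 4.35, 3.63 and 3.03 CPM in the DSS+BV mice. Its fold change was the smallest of the 5, -1.79 ± 0.349 on the log2 scale (SE; adjusted p = 0.186 with edgeR and 0.000756 with DESeq2). *Clec4e* (Entrez gene 56619), which encodes Mincle, was at 4.25, 2.49 and 10.2 CPM in the DSS mice and 1.58, 1.34 and 0.506 CPM in the DSS+BV mice. DSS 3 was 4.10 times DSS 2, the widest spread of any receptor in the DSS group. The *Clec4e* difference between the groups was -2.30 ± 0.659 on the log2 scale (SE; adjusted p = 0.318 with edgeR and 0.0318 with DESeq2). The count of *Clec4d* per count of *Clec4e* was between 1.84 and 3.58 in the DSS libraries and between 2.71 and 6 in the DSS+BV libraries, and the groups overlapped.

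**Figure D1:**
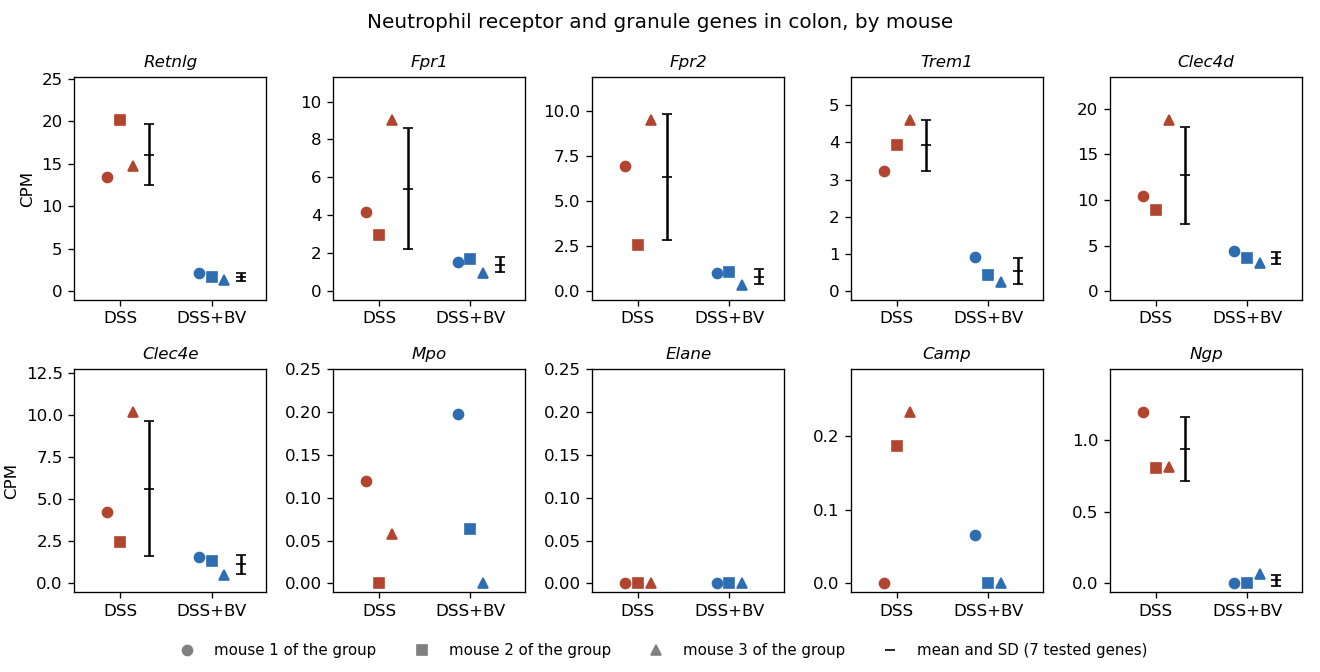
Normalised expression (CPM, linear axis from 0) of the 10 genes in each mouse, with DSS in red and DSS+BV in blue, the symbol giving the mouse number within its group and the black bar the mean ± SD for the 7 tested genes. Retnlg and the 5 receptors were lower in the DSS+BV mice without overlap, and Mpo, Elane and Camp reached at most 0.233 CPM in any mouse.

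**Figure D2:**
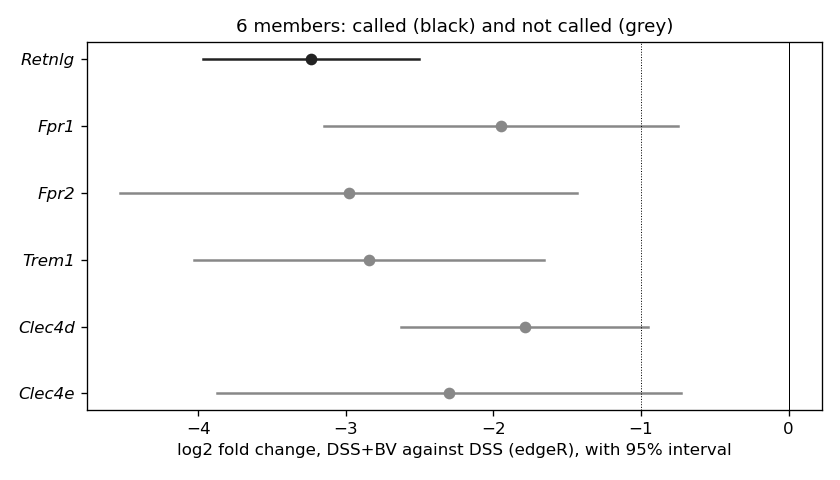
Log2 fold change (x axis, DSS+BV against DSS) of the 6 members with over 3 counts in every library, with 95% intervals from the edgeR standard error. The dotted line marks the threshold of -1; Retnlg, in black at -3.24, was the member called, and the receptors in grey lay between -2.98 and -1.79.

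The order of the mice was similar but not identical among the receptors. DSS 3 was the highest mouse for 5 of 5 receptors and DSS+BV 3 the lowest, and DSS 2 was the lowest DSS mouse for 4 of the 5, *Trem1* being the exception. In the DSS+BV group *Fpr1* and *Fpr2* were highest in mouse 2 and the other 3 receptors in mouse 1. *Retnlg* was highest in DSS 2 within its group, while among the DSS+BV mice it was highest in mouse 1 and lowest in mouse 3. Counts of *Retnlg* per count of the 5 receptors together were 0.461, 0.967 and 0.282 in mice 1, 2 and 3 of the DSS group and 0.232, 0.202 and 0.250 in those of the DSS+BV group. This ratio was higher in every DSS mouse than in every DSS+BV mouse, narrowly in DSS 3 and most in DSS 2.

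Leaving out DSS 3 brought *Fpr1* to -1.36, *Clec4d* to -1.40 and *Clec4e* to -1.56 on the log2 scale, the smallest values of each with any 1 library left out. The median of the 5 receptors was then -1.56. Without DSS 2 and DSS+BV 1 together, the libraries that clustered with the other group, the receptor median was -2.95, and 3 members were called, *Retnlg* and 2 receptors, *Fpr2* (adjusted p = 0.0483 from edgeR) and *Trem1* (adjusted p = 0.0417 from edgeR). That comparison of the other 4 libraries called 615 genes in all, 333 of them lower, against 13 with all 6. Leaving out the libraries that lay nearest the other group favours a wider gap by design. These calls and p-values are therefore no support for a difference in the members.

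**Figure D3:**
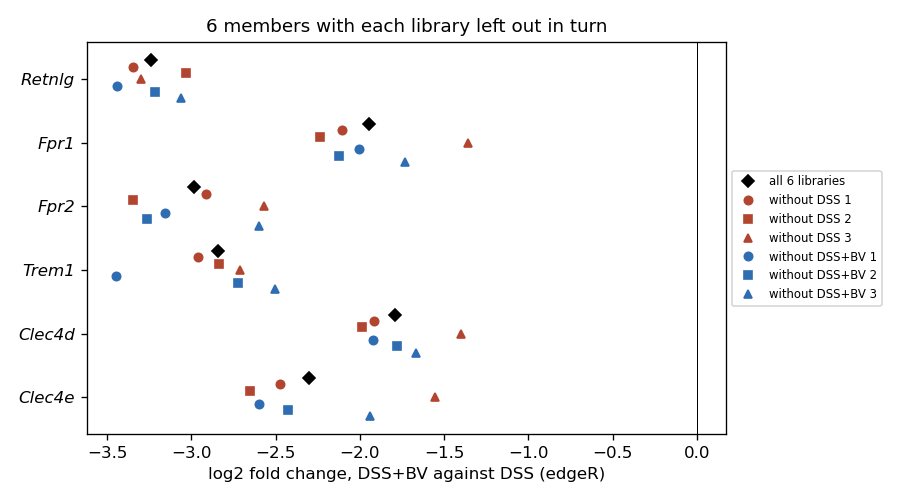
Log2 fold change (x axis, DSS+BV against DSS) of the same 6 members with all 6 libraries (black diamond) and with 1 library left out in turn (red for DSS, blue for DSS+BV, symbol by mouse number). All values were below 0; those without DSS 3 were the nearest to 0 for Fpr1, Fpr2, Clec4d and Clec4e, while Retnlg stayed between -3.44 and -3.03.

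The granule genes were at or near the limit of detection, with 1 exception. *Elane* had 0 counts in all 6 libraries, which over the 3 libraries of a group allows a level of up to 0.0601 CPM for the DSS group and 0.0643 CPM for the DSS+BV group (3 counts, counting error only). *Mpo* had 2, 0 and 1 counts in the DSS mice and 3, 1 and 0 in the DSS+BV mice, a ratio of DSS+BV to DSS of 1.43 (95% exact interval 0.241 to 9.74, counting error only). *Camp* had 0, 3 and 4 counts in the DSS mice and 1, 0 and 0 in the DSS+BV mice, a ratio of 0.153 (95% exact interval 0.00339 to 1.19). No difference in *Mpo* or *Camp* was detectable at this depth, and a filter on low counts removed these 3 genes before the test.

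*Ngp* (Entrez gene 18054), a cathelicidin-related protein of secondary granules, had 20, 13 and 14 counts in mice 1, 2 and 3 of the DSS group and 0, 0 and 1 counts in those of the DSS+BV group. The ratio of DSS+BV to DSS was 0.0228 (95% exact interval 0.000565 to 0.133, counting error only). *Ngp* passed the filter through the DSS libraries alone, and edgeR did not call it (adjusted p = 0.137), whereas DESeq2 did (adjusted p = 0.0111). Of the 4 granule genes, 0 were therefore called by edgeR (0.0892% of all genes it tested were called lower) and 1, *Ngp*, by DESeq2 (1.73%). *Ngp* had 0.770 ± 0.182 CPM per kb of exon in the DSS mice (SD, n = 3), above *Camp* at 0.184 ± 0.163 and *Mpo* at 0.0204 ± 0.0206.

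Set on this per-length scale (CPM per kb of exon in GENCODE M21), the order in the DSS group was *Retnlg* at 27.1 ± 6.03, *Clec4d* at 9.60 ± 4, *Fpr2* at 4.88 ± 2.71, *Fpr1* at 4.08 ± 2.41, *Clec4e* at 2.24 ± 1.6, *Trem1* at 1.31 ± 0.228 and then *Ngp* (SD, n = 3 each). The ranges of neighbours in this order overlapped from *Clec4d* to *Trem1*, and did not overlap between *Retnlg* and *Clec4d* or between *Trem1* and *Ngp*. Read within each DSS mouse, *Clec4d* was above *Fpr2* and *Fpr1* above *Clec4e* in all 3. In the DSS+BV group *Retnlg*, at 2.87 ± 0.772, overlapped with *Clec4d*, at 2.78 ± 0.499. *Fpr1* followed at 1.05 ± 0.302, *Fpr2* at 0.614 ± 0.323, *Clec4e* at 0.454 ± 0.224 and *Trem1* at 0.180 ± 0.115. Which transcripts the authors counted is not given in the sources used here, so these levels rest on another set of exon lengths.

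Other genes of the same granules and receptor class were read from lists. Of the other primary granule genes, *Prtn3* (proteinase 3) had between 4 and 14 counts in DSS and between 2 and 8 in DSS+BV, and *Ctsg* (cathepsin G) at most 1 count in a library. Both were too low to be tested. Of 7 other secondary granule genes 6 were tested, 5 of them with a log2 fold change below 0, and 4 without overlap between the groups. By edgeR 1 was called, the collagenase *Mmp8* (-4.32), and by DESeq2 5. The highest of them in CPM, *Cd177*, a surface partner of proteinase 3, was at 98.9, 308 and 74.1 CPM in the DSS mice and 282, 99.4 and 183 CPM in the DSS+BV mice, with overlapping groups. *Cd177* was highest in DSS 2, where the neutrophil marker *S100a8* had its lowest value of the DSS mice (30.4 CPM). *Hp* (haptoglobin) was between 42.1 and 82.1 CPM in DSS and between 0.569 and 11.3 CPM in DSS+BV. Which cells carried the transcripts of these listed genes was not tested. Of 5 tertiary granule genes 4 were tested, all 4 had a value below 0 and 3 did not overlap. By edgeR 1 was called, the gelatinase *Mmp9* (-2.77), and by DESeq2 2. Of all genes tested by edgeR, 51.5% had a value below 0, 11.3% were lower without overlap and 0.0892% were called lower. DESeq2 called 1.73% of the genes it tested lower.

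Among 19 other neutrophil surface receptors 15 were tested, and all 15 had a log2 fold change below 0, with a median of -1.43. *Cxcr2*, the receptor for neutrophil-attracting chemokines, was the 1 gene called by edgeR (-3.61), and DESeq2 called 5. Over all genes they tested, edgeR called 0.0892% lower and DESeq2 1.73%. In 6 of the 15 every DSS+BV mouse was below every DSS mouse, as in 11.3% of all tested genes. The highest in CPM, *Fcgr3* (an activating Fc receptor) and *Clec4n* (Dectin-2), had overlapping groups, at -1.14 and -0.86.

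Adaptors and signalling proteins pass on the signals of the member receptors. Of 16 adaptor and signalling genes, all tested, 0 were called by edgeR or DESeq2, 1 had an unadjusted edgeR p under 0.05, and 0 had groups that did not overlap in the lower direction. Their median log2 fold change was -0.59. *Tyrobp* (DAP12), the adaptor of TREM-1, was at 47.7, 27.7 and 60.8 CPM in the DSS mice and 33.2, 14.5 and 18.1 CPM in the DSS+BV mice. On the log2 scale it differed by -1.05 ± 0.398 (SE; edgeR adjusted p = 0.378). *Fcer1g*, the adaptor of both lectins, was at 44.0, 19.7 and 64.1 CPM and at 31.1, 17.8 and 14.2 CPM, which is -1.02 ± 0.475 on the log2 scale (SE; edgeR adjusted p = 0.439). Counts of *Trem1* per 100 counts of *Tyrobp* were 6.78, 14.1 and 7.57 in the DSS libraries and 2.78, 3.07 and 1.39 in the DSS+BV libraries. Counts of *Clec4e* per 100 of *Fcer1g* were between 9.67 and 15.9 in DSS and between 3.57 and 7.5 in DSS+BV, and those of *Clec4d* between 23.8 and 45.1 and between 14 and 21.4. Neither lectin nor *Trem1* overlapped between the groups relative to its adaptor. Each of the 3 receptors differed more between the groups than its adaptor, which sets the direction of these ratios.

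The ligand genes included acute-phase proteins. *Saa1* (serum amyloid A1) had the highest mean CPM of the ligand genes in the DSS group. It was at 565, 532 and 1876 CPM in the DSS mice and 324, 183 and 73.3 CPM in the DSS+BV mice, without overlap. The *Saa1* difference was -2.36 ± 0.709 on the log2 scale (SE, adjusted p = 0.329 with edgeR and 0.0130 with DESeq2). Serum amyloid A3 (*Saa3*), an acute-phase protein, was at 136, 312 and 457 CPM in the DSS mice and 10.6, 32.6 and 26.1 CPM in the DSS+BV mice, and was not called (-3.71 ± 0.593 on the log2 scale, SE; edgeR adjusted p = 0.135). *Anxa1*, which encodes annexin A1, was at 366, 205 and 417 CPM and at 367, 255 and 106 CPM, and *Pglyrp1*, a peptidoglycan recognition protein that binds TREM-1, at 343, 199 and 383 CPM and at 205, 134 and 175 CPM. Both overlapped between the groups. Of the 6 ligand genes 0 were called by edgeR, 3 by DESeq2, and 4 had an unadjusted edgeR p under 0.05. Over all tested genes, DESeq2 called 1.73% lower, and 9.12% had such an edgeR p in the lower direction. *Saa2*, which is among the 3 and the 4, had 28, 11 and 31 counts in the DSS mice and 4, 2 and 1 in the DSS+BV mice. It passed the filter through the DSS libraries alone, so its place in these counts is no support for a difference.

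Markers of cells that could carry these transcripts moved with the groups to different degrees. Of 14 neutrophil markers 13 were tested, all 13 had a value below 0, and 11 did not overlap between the groups (11.3% of all tested genes). Their median log2 fold change was -2.77. DESeq2 called 11 (1.73% of all genes it tested were called lower) and edgeR 5 (0.0892%). Of these 5, *Cxcr2*, *Mmp8* and *Mmp9* are also in the lists above. *Wfdc21*, which is among the 13 tested, the 11 without overlap and the 11 called by DESeq2, passed the filter through the DSS libraries alone. The calprotectin subunit *S100a8* was at 46.3, 30.4 and 39.1 CPM in the DSS mice and 1.85, 1.47 and 2.09 CPM in the DSS+BV mice. In bulk tissue, fewer cells of a type and less RNA per cell cannot be told apart. The 5 receptors together had 0.335, 0.311 and 0.553 counts for each count of *S100a8* plus *S100a9* in mice 1, 2 and 3 of the DSS group and 1.89, 2.08 and 1.36 in those of the DSS+BV group. *Retnlg* had between 0.155 and 0.301 and between 0.339 and 0.440. *S100a8* and *S100a9* differed more between the groups than the receptors or *Retnlg* (-4.42 and -4.19 on the log2 scale), which sets the direction of these ratios. Per 100 counts of all 14 neutrophil markers the groups overlapped, with 3.49, 8.49 and 4.41 receptor counts in the DSS libraries and 2.66, 3.30 and 11.3 in the DSS+BV libraries. *Retnlg* also overlapped on this measure, between 1.24 and 8.21 and between 0.617 and 2.81. *Ly6g*, the highest of these markers in CPM, was at 485, 76.1 and 854 CPM in the DSS mice and 303, 215 and 19.1 CPM in the DSS+BV mice. It made up 8093 of 13937 marker counts in DSS 1 and 4588 of 5348 in DSS+BV 1. In DSS 2 it was 1224 of 3946 and in DSS+BV 3 it was 302 of 711. *Ly6g* also ordered the mice differently from *S100a8*. The measure per 100 marker counts therefore cannot show whether the receptors or *Retnlg* kept pace with neutrophil content.

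The 14 macrophage and monocyte markers all had a log2 fold change below 0 (51.5% of all tested genes), with a median of -0.88. Of these, 0 were called by edgeR and 2 by DESeq2 (1.73% of the genes it tested were called lower). An unadjusted edgeR p under 0.05 held for 2 (9.12% of tested genes in the lower direction). The summed level of the 14 markers was between 924 and 2108 CPM in DSS and between 583 and 1463 CPM in DSS+BV. No marker was at 0 in all 6 libraries, and the sum in DSS+BV 1 lay within the DSS range. Among the DSS mice this sum followed the order DSS 3, DSS 1, DSS 2, as did *Fpr1*, *Fpr2*, *Clec4d* and *Clec4e* and also the sums of the neutrophil, dendritic cell, eosinophil and erythroid markers. The neutrophil sum leans on *Ly6g* and the eosinophil sum on *Il5ra*, and each of these genes had that order. *S100a8* did not, being highest in DSS 1. Per 100 counts of the 14 macrophage and monocyte markers, the 5 receptors had 1.94, 2.25 and 2.47 counts in mice 1, 2 and 3 of the DSS group and 0.640, 1.32 and 0.868 counts in those of the DSS+BV group. For each of the 5 receptors alone this ratio was lower in the DSS+BV mice without overlap, with the narrowest gap for *Fpr1* (lowest DSS value 0.280, highest DSS+BV value 0.277). The median log2 fold change was lower for the receptors (-2.30) than for these markers (-0.88), which sets the direction of these ratios.

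Red cell genes mark blood in the tissue. Of 6 erythroid markers 5 were tested, in all 5 each DSS+BV mouse was below each DSS mouse (11.3% of all tested genes), and 0 were called by either tool, with 1 at an unadjusted edgeR p under 0.05. Their sum was between 212 and 432 CPM in DSS and between 41.8 and 178 CPM in DSS+BV. The part of blood in the tissue in the values of the members was not tested. Eosinophil markers summed to between 8.39 and 37.6 CPM in DSS and between 5.63 and 6.60 CPM in DSS+BV, with *Epx* at 0 counts in the DSS libraries. This sum leans on *Il5ra*, at 24.0, 1.62 and 29.6 CPM in the DSS mice and 2.77, 1.02 and 0.695 CPM in the DSS+BV mice, with overlapping groups. Of the 4 eosinophil markers tested, 2 had a log2 fold change below 0 and 2 above. Dendritic cell markers summed to between 17.3 and 70.3 CPM and between 12 and 41.7 CPM, and mast cell markers to between 40.9 and 127 CPM and between 67.8 and 103 CPM. The 9 colon epithelium markers all had a value above 0 (median 0.48), and 0 were called by edgeR, 1 by DESeq2, and 3 had an unadjusted edgeR p under 0.05. Over the 16155 genes it tested, DESeq2 called 45 higher. The share of all genes with such an edgeR p in the higher direction was not calculated. The epithelium markers summed to between 10349 and 18971 CPM in DSS and between 18321 and 38568 CPM in DSS+BV, with overlapping groups. The part of these cell types in the receptor values was not tested.

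**Figure D4:**
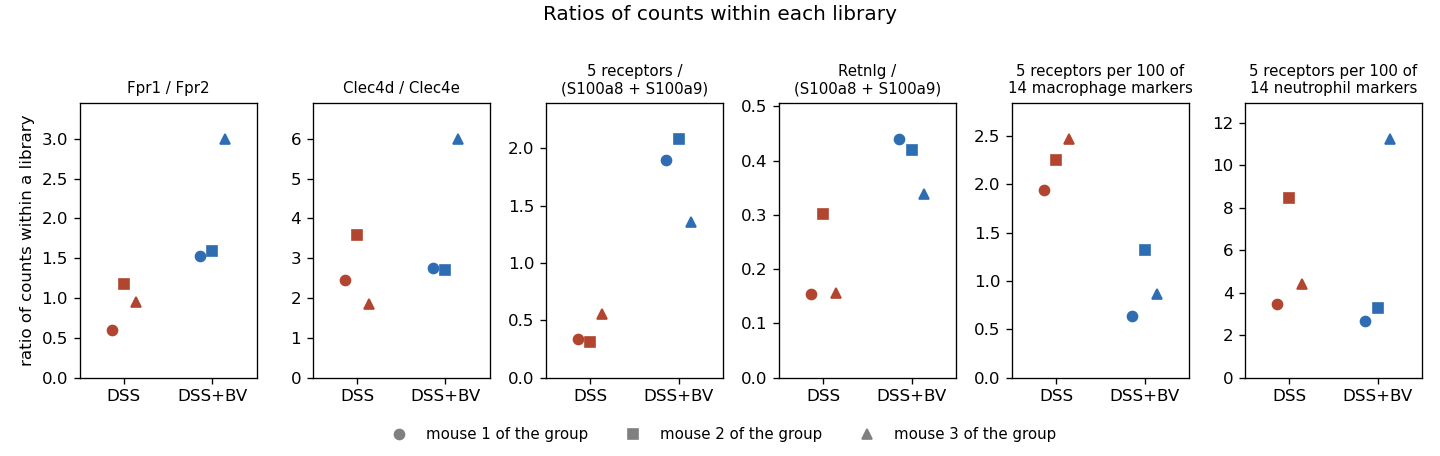
Ratios of counts within each library (y axes from 0), with DSS in red, DSS+BV in blue and the symbol giving the mouse number. Relative to S100a8 plus S100a9, which differed more than the receptors, the receptors were higher in the 3 DSS+BV mice (1.36 to 2.08 against 0.311 to 0.553). Per 100 counts of the 14 macrophage and monocyte markers, whose median change was smaller than that of the receptors, the receptors were lower (0.640 to 1.32 against 1.94 to 2.47). Per 100 counts of the 14 neutrophil markers, a sum that leans on Ly6g, the groups overlapped (2.66 to 11.3 against 3.49 to 8.49).

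Transcription factors of granulocyte development were also read. Of 6, 5 were tested, 0 were called by edgeR, 2 had an unadjusted edgeR p under 0.05, and *Cebpe*, which drives the secondary granule stage, had at most 10 counts in a library. *Cebpd* was at 89.5, 63.9 and 130 CPM in the DSS mice and 55.1, 49.8 and 28.1 CPM in the DSS+BV mice, without overlap, and *Cebpa* was at 35.1, 35.5 and 36.6 CPM and at 31.1, 37.2 and 46.5 CPM, with overlap. DESeq2, which called 1.73% of all genes it tested lower, called 1 of these genes. This was *Cebpb*, at 30.8 ± 4.51 and 12.4 ± 2.14 CPM in the DSS and DSS+BV groups (SD, n = 3 each). *Cebpb* and *Cebpe* were named after their values were seen.

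Outside the 10 genes, those whose log2 CPM followed the mean of the 5 receptors most closely over the 6 libraries were *Numbl* (Pearson's r = 0.997), *Tarm1* (0.995), *Nnmt* (0.995), *Gm5150* (0.994) and *Sgcb* (0.994). *Tarm1* encodes an activating myeloid receptor that pairs with the same adaptor as the lectins, and was at 1.38, 0.808 and 1.98 CPM in the DSS mice and 0.396, 0.382 and 0.190 CPM in the DSS+BV mice. *Tarm1* passed the filter through the DSS libraries alone. *Retnlg* had r = 0.901 and *Ngp* r = 0.852 with the same mean. The difference between the groups by itself gives a high r to any gene that is lower in DSS+BV. Within the DSS group, *Retnlg* was highest in DSS 2 and *Ngp* in DSS 1, while the receptors were highest in DSS 3. With 6 libraries in 2 groups, such values describe these mice only.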

How the data were processed

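Colon RNA of 6 libraries, 3 per group, was analysed. The authors deposited expected counts per gene, estimated from the reads. The submitters' processing notes name HISAT2 2.1.0, Bowtie2 2.2.5 and RSEM 1.2.8 and the build GRCm38.p6, with no role for each tool. The deposited expected counts were rounded to whole numbers, which changed none of the members, and 1573 of 18477 genes had a value that was not whole. Genes were filtered with filterByExpr (minimum count 10, total 15), which left 14579, and scaled with TMM. DSS+BV was compared with DSS by edgeR 4.0.16 (quasi-likelihood test, R 4.3.3) with Benjamini-Hochberg adjustment over all tested genes. DESeq2 1.42.0, other scalings, filters, a replicate block and each library left out were alternatives. The script was tested on simulated data.

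Groups came from the sample labels. Replicates of a group differed by more than counting noise. Depth was 15293276 to 17254343 expected counts per library; at this depth 3 counts over a group equal about 0.06 CPM, and counting intervals (95%, exact) cover counting error only. The members and gene lists were chosen with earlier results of these data known. Named outside the members were called genes, in some lists those with the highest CPM, chosen adaptors, ligands and markers, and the 5 genes most like the receptors. Not every list has its highest genes named. No protein sequences were used here.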

Additional observations from a re-analysis of the deposited data

How the results depend on the processing

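The 13 genes called over the whole table became 325 with DESeq2, 0 with the replicate block, between 0 and 7 with 1 library left out, and 615 without DSS 2 and DSS+BV 1, an alternative chosen after seeing the data. The members called went from 1 to 7, 0, 0 and 3 under the same settings, the receptors called from 0 to 5 with DESeq2 and 2 without both libraries, and the granule genes called from 0 to 1 with DESeq2. The median of the receptors lay between -2.65 and -1.56 with 1 library left out (-1.56 without DSS 3) and was -2.95 without both libraries. Replicate numbers did not pair the mice: deviations of same-numbered libraries correlated at 0.267, 0.255 and -0.296. Under the replicate block *Retnlg* was at -3.24 (edgeR adjusted p = 0.180). None of 97 member values under the alternatives reversed. The groups did not overlap in any of the 7 tested members, so a reversal was hardly possible under these alternatives. The planned median over the granule genes is not given, since only *Ngp* could be tested. Of the members, *Fpr2*, *Trem1*, *Clec4e* and *Ngp* rested on fewer than 10 counts in at least 1 DSS+BV library, as did *Mpo*, *Camp* and *Elane* in every library, which limits their precision. The cause of these changes was not tested.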
